A study of Mus musculus with 6 samples.

Results

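The 10 genes described here encode peptide hormones that are made by enteroendocrine cells of the gut, by neurons, or by both: Gcg, Gip, Cck, Sst, Pyy, Nts, Sct, Ghrl, Vip and Tac1. They were chosen by gene symbol, through the Ensembl gene ID in each row, from the 18437 protein-coding mRNAs listed in any of 6 ribosome profiling (Ribo-seq) libraries, and all 10 were found. Ribo-seq sequences the mRNA fragments that translating ribosomes protect from RNase, so a value stands for ribosomes on a coding sequence (CDS) and not for the amount of mRNA or of peptide. The libraries were labelled as brain, small intestine, colon, kidney, heart and lung of WT C57BL/6J mice, 4 weeks of age and without treatment, with 1 library per tissue. The authors deposited RPKM, the reads on a CDS scaled by its length and by all reads on CDSs, and RPKM times CDS length gave back whole reads for 100% of the values. No replicate exists, so no test between libraries was made. Intervals are exact 95% intervals of the recovered reads (Poisson for a level, conditional binomial for a ratio), they cover counting error only, and the reads carried no molecular identifiers. An mRNA without reads is given with the RPKM that 3 reads would have. A fold against no read was computed against 3 reads and is written "at least", which is not the lower end of an interval.

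Between 4504853 and 10635031 reads on CDSs were recovered per library. Tissue markers went against 4 of the 6 labels, and the labels were kept. The ileal bile acid carrier Fabp6 had 26087 RPKM and the intestinal apolipoprotein Apoa4 had 3368 RPKM in the brain-labelled library. The neuronal vesicle protein Snap25 had 683 RPKM in the small intestine-labelled library and 0.761 RPKM in the brain-labelled library. Goblet cell mucin Muc2 was highest in the kidney-labelled library at 2486 RPKM, and uromodulin (Umod), a protein of the kidney tubule, was highest in the colon-labelled library at 16438 RPKM. Heart (Myh6) and lung (Sftpc) markers were highest under their own labels. Each library is therefore named below by its label alone (the brain-labelled library is the one that the submitters labelled brain), and every comparison holds between libraries, whatever tissue each came from. Outside the library in which each was highest, the 6 markers other than Fabp6 had between 0% and 24.0% of that level, with a median of 0.135%. In lysates of whole tissue, fewer cells of a type and fewer ribosomes per cell cannot be told apart.

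Enteroendocrine cells are scattered hormone cells of the gut lining. Their hormones are made as long precursors that are cut at pairs of basic residues by prohormone convertases, trimmed by carboxypeptidase E and, for many of them, amidated at a glycine by Pam. Several of the same genes are also used by neurons: cholecystokinin, somatostatin, vasoactive intestinal peptide and substance P are neurotransmitters or modulators in the brain, and the latter 3 also in the nerve net of the gut wall. Secretin and GIP, by contrast, are known mainly as hormones of the upper intestine, glucagon-like peptides and peptide YY as hormones of the lower intestine, and ghrelin as the hunger hormone of the stomach.

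Most of the precursors hold the codon pattern of a processing signal, which is shown here because the enzymes described below act on such sites. A glycine codon (GGN) followed by 2 basic codons (each for lysine or arginine) was searched in the reading frame of the Ensembl canonical CDS. It was present in 8 of the 10 members, among them Nts and Gip, and absent from Sst and Ghrl. The pattern alone does not show that a hormone ends or is amidated there. The site in Nts does not mark the end of neurotensin, which is not amidated. No stretch is shown for Gip, and whether its site is used was not tested. Among all 18319 canonical CDSs 37.1% held it, and among the 1254 with a CDS between 345 and 540 nt, the range of the members, 19.1% did. The following stretches (GRCm39 with GENCODE M39, coding strand, 5′ to 3′) end at the site where the named hormone ends and is amidated, with the glycine and basic codons in capitals. In Gcg it is the end of GLP-1, in Vip that of vasoactive intestinal peptide and in Tac1 that of substance P.
Gcg (chr2:62307170-62307214, minus strand, exon 4): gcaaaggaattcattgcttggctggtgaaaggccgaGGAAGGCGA
Sct (chr7:140858748-140858792, minus strand, exon 2): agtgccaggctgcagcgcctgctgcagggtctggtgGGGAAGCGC
Vip (chr10:5594072-5594116, plus strand, exon 5): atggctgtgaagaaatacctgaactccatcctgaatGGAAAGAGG
Cck (chr9:121319164-121319208, minus strand, exon 3): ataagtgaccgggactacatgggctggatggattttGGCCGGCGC
Pyy (chr11:101997870-101998022, minus strand, exons 2 and 3): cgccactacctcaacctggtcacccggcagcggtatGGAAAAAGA
Tac1 (chr6:7556729-7556773, plus strand, exon 2): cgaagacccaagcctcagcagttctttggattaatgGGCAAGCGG
Neurotensin and somatostatin are not amidated. Their stretches are shown for contrast, with only the basic pair in capitals, which follows neurotensin and precedes the shorter form of somatostatin.
Nts (chr10:102318210-102318254, minus strand, exon 4): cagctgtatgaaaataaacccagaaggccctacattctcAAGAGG
Sst (chr16:23708482-23708529, minus strand, exon 2): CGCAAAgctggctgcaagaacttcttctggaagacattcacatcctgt

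Reads of a gene were counted on 1 isoform, which the methods describe as that with the longest CDS in the annotation the authors used. Its CDS was that of the canonical isoform in GENCODE M39 for 6 members. For Cck it was not: the counted CDS of 402 nt shared 239 nt with the canonical CDS of 345 nt, and it held none of the 45 nt printed above. Reads over the part of the Cck mRNA that encodes the active hormone were therefore not counted as CDS reads, and a level of Cck per length is uncertain beside the other members, while its folds between libraries compare the same 402 nt. The counted CDS of Pyy shared 289 of its 300 nt with the canonical CDS of 435 nt. For Sct and Tac1 the counted CDSs of 417 and 390 nt contained the whole canonical CDS. No member overlapped another protein-coding gene. Noncoding genes lay on the opposite strand at Cck (Gm68675, Gm69828) and at Ghrl (Gm26982, Gm44033).

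The 10 members fell into 3 groups by the library in which their RPKM was highest. Gip, Nts, Sct and Ghrl were highest in the brain-labelled library, Gcg and Pyy in the kidney-labelled one, and Cck, Sst, Vip and Tac1 in the small intestine-labelled one. No member was highest in the colon-, heart- or lung-labelled libraries. Of all 15432 mRNAs with at least 10 reads over the 6 libraries, 14.9% were highest in the brain-labelled library, 9.1% in the kidney-labelled and 23.5% in the small intestine-labelled one. The shares were 15.2%, 12.8% and 24.5% for the libraries labelled colon, heart and lung. The plot of RPKM by library shows the 3 groups.

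**Figure D1:**
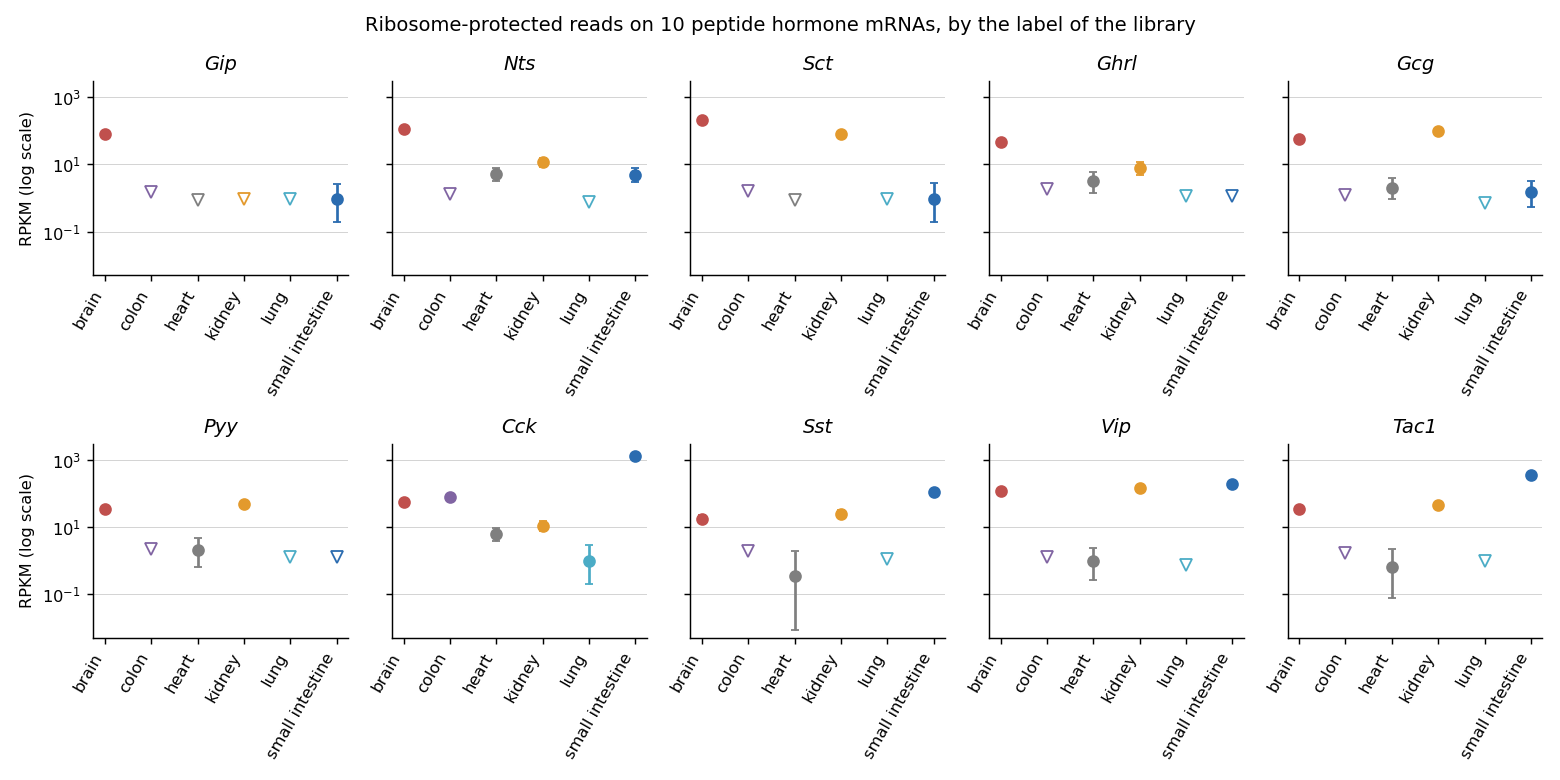
RPKM of each of the 10 members (log axis) in the 6 libraries, named by their labels. Points are single libraries with exact 95% Poisson intervals, and open triangles mark the RPKM that 3 reads would give where no read was found. Vip stands at 117 to 193 RPKM in 3 libraries, whereas Gip exceeds 1 RPKM only in the brain-labelled library.

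Secretin (Sct, ENSMUSG00000038580, chr7:140858243-140859052), which makes the pancreas release bicarbonate, had 208 RPKM (195 to 222, 922 reads) in the brain-labelled library and 78.1 RPKM (247 reads) in the kidney-labelled one. It had 3 reads (0.941 RPKM) in the small intestine-labelled library and none in the colon-, heart- and lung-labelled ones, where 3 reads would give 1.60, 0.879 and 0.931 RPKM. The brain- and kidney-labelled libraries thus stood apart from the other 4. By the deposited RPKM, the brain-labelled library was 2.66-fold (2.31 to 3.08) above the kidney-labelled one. Other scalings put this fold at 2.06 to 2.22.

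GIP (Gip, ENSMUSG00000014351, chr11:95909127-95921657), the incretin of K cells, was seen almost entirely in the brain-labelled library. It had 78.6 RPKM there (70.7 to 87.1, 361 reads). It had 3 reads (0.908 RPKM) in the small intestine-labelled library and no read in the colon-, heart-, kidney- and lung-labelled ones. In the kidney-labelled library 3 reads would give 0.916 RPKM, so the difference between the brain- and kidney-labelled libraries was at least 85.8-fold.

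Neurotensin (Nts, ENSMUSG00000019890, chr10:102317614-102326396), a peptide of N cells and of some neurons, had 112 RPKM (103 to 121, 604 reads) in the brain-labelled library. Lower values were found in the libraries labelled kidney (11.7 RPKM, 45 reads), heart (5.06 RPKM, 21 reads) and small intestine (4.90 RPKM, 19 reads), and no read in the colon- and lung-labelled ones. The level in the brain-labelled library was 9.57-fold (7.06 to 13.3) above the next. The heart- and small intestine-labelled libraries did not differ beyond counting error, with a ratio of 1.03 (0.528 to 2.03).

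Ghrelin (Ghrl, ENSMUSG00000064177, chr6:113693080-113696844) had 45.5 RPKM (38.95 to 52.9, 170 reads) in the brain-labelled library, 7.89 RPKM (21 reads) in the kidney-labelled one and 3.13 RPKM (9 reads) in the heart-labelled one. It had no read in the colon-, lung- and small intestine-labelled libraries. Ghrelin needs the acyltransferase Mboat4 to become active, and Mboat4 had 2 reads in the heart-labelled library, 1 in the small intestine-labelled one and none elsewhere.

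Proglucagon (Gcg, ENSMUSG00000000394, chr2:62304873-62313997) gives glucagon in the pancreas and GLP-1 and GLP-2 in L cells. It had 97.2 RPKM (87.9 to 107, 398 reads) in the kidney-labelled library and 55.5 RPKM (49.6 to 62.0, 319 reads) in the brain-labelled one, a ratio of 1.75 (1.51 to 2.03). The libraries labelled heart (9 reads, 2.04 RPKM) and small intestine (6 reads, 1.45 RPKM) followed at low levels that did not differ beyond counting error, with a ratio of 1.40 (0.445 to 4.78). No read was found in the colon- and lung-labelled ones. The insulin genes Ins1 and Ins2, which mark the pancreatic islet where glucagon is also made, were not listed in any library. Iapp and Ppy, also made in the islet, had 19 and 128 reads in the kidney-labelled library, where Gcg was highest, and their part in its level was not tested.

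Peptide YY (Pyy, ENSMUSG00000017311, chr11:101997502-101998658), released with GLP-1 after a meal, had nearly the same order. It had 49.2 RPKM (40.5 to 59.2, 112 reads) in the kidney-labelled library, 33.9 RPKM (27.8 to 40.9, 108 reads) in the brain-labelled one and 2.04 RPKM (5 reads) in the heart-labelled one. The other 3 libraries had no read, and in the small intestine-labelled one 3 reads would give 1.31 RPKM. The ratio of the highest to the next was 1.45 (1.11 to 1.91).

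Cholecystokinin (Cck, ENSMUSG00000032532, chr9:121315695-121324863), a hormone of I cells and a peptide of many cortical neurons, was the most abundant member. It had 1277 RPKM (1237 to 1317, 3923 reads) in the small intestine-labelled library. It was the only member with reads in every library, at 79.0 RPKM (66.6 to 93.0, 143 reads) in the colon-labelled one, 54.5 RPKM (47.7 to 62.0, 233 reads) in the brain-labelled one, 10.8 RPKM (33 reads) in the kidney-labelled one, 6.08 RPKM (20 reads) in the heart-labelled one and 0.965 RPKM (3 reads) in the lung-labelled one. The level in the small intestine-labelled library was 16.2-fold (13.7 to 19.2) above that in the colon-labelled library. The latter exceeded the brain-labelled library 1.45-fold (1.17 to 1.79), and only the kidney- and heart-labelled libraries could not be ordered, with a ratio of 1.78 (0.992 to 3.27).

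Somatostatin (Sst, ENSMUSG00000004366, chr16:23707321-23711733), the inhibitory peptide of D cells and of a class of interneurons, had 111 RPKM (98.6 to 124, 295 reads) in the small intestine-labelled library. It had 24.6 RPKM in the kidney-labelled one and 17.6 RPKM in the brain-labelled one, with 65 reads in each, and 1 read in the heart-labelled one. The colon- and lung-labelled libraries had none. The highest level was 4.50-fold (3.43 to 5.98) above the next. By the deposited RPKM, the kidney- and brain-labelled libraries did not differ beyond counting error, with a ratio of 1.40 (0.979 to 2.01). This depended on the scaling, as given below.

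Vasoactive intestinal peptide (Vip, ENSMUSG00000019772, chr10:5589186-5599956), which relaxes smooth muscle, was spread over 3 libraries. It had 193 RPKM (179 to 207, 755 reads) in the small intestine-labelled library, 146 RPKM (134 to 159, 568 reads) in the kidney-labelled one and 117 RPKM (108 to 126, 637 reads) in the brain-labelled one. The heart-labelled library had 4 reads (0.953 RPKM), and the colon- and lung-labelled ones had none. By the deposited RPKM, the 3 leading libraries lay within 1.65-fold of each other. Each step in the order, of 1.32-fold (1.18 to 1.47) and 1.25-fold (1.11 to 1.40), exceeded counting error. Other scalings put the level in the brain-labelled library at 0.497 to 0.532 of that in the small intestine-labelled one.

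Tachykinin 1 (Tac1, ENSMUSG00000061762, chr6:7554120-7565834) is the precursor of substance P and neurokinin A. It had 362 RPKM (340 to 384, 1078 reads) in the small intestine-labelled library, 44.3 RPKM (131 reads) in the kidney-labelled one and 35.0 RPKM (145 reads) in the brain-labelled one. The heart-labelled library had 2 reads, and the colon- and lung-labelled ones had none. The highest level was 8.16-fold (6.80 to 9.86) above the next. By the deposited RPKM, the kidney- and brain-labelled libraries could not be ordered, with a ratio of 1.27 (0.993 to 1.62). This too depended on the scaling.

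The makeup of the members' signal differed between the 3 libraries that held nearly all of it. The members' summed RPKM was 1950 in the small intestine-labelled library, 757 in the brain-labelled one and 470 in the kidney-labelled one, against 79.0, 20.3 and 0.965 in the colon-, heart- and lung-labelled ones. Cck took 65.5% of the sum in the small intestine-labelled library and Tac1 18.5%. In the brain-labelled library Sct took 27.5%, Vip 15.4% and Nts 14.8%. In the kidney-labelled library Vip led with 31.1%, followed by Gcg with 20.7% and Sct with 16.6%. Because Cck was counted over a partly different CDS, its share is less certain than its folds. The same order of the leading members held by reads, at 64.5% for Cck, 25.9% for Sct and 35.1% for Vip.

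**Figure D2:**
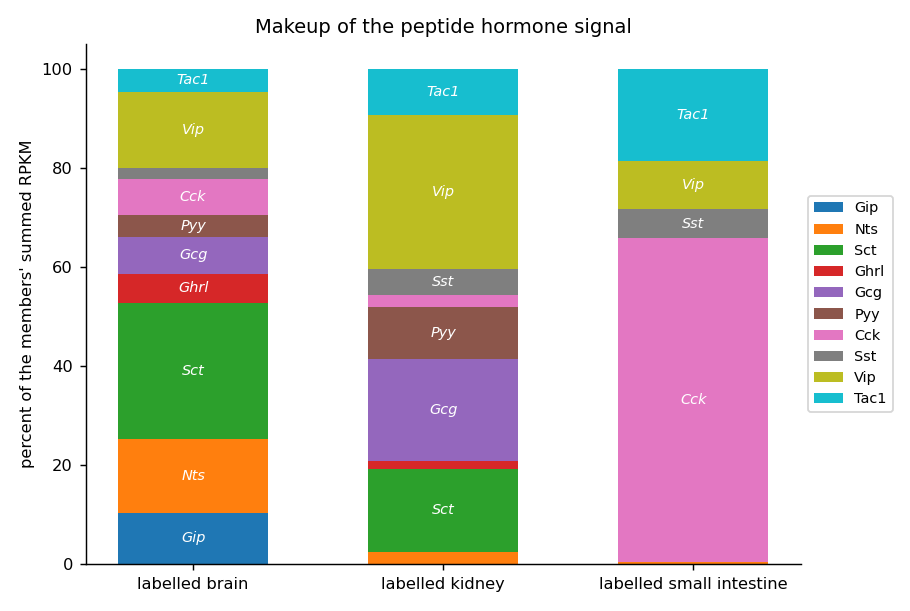
Share of each member in the members' summed RPKM (percent, stacked to 100%) in the 3 libraries with the highest sums. Cck fills 65.5% of the bar labelled small intestine, whereas the bars labelled brain and kidney are divided among 9 or 10 members, led by Sct (27.5%) and Vip (31.1%).

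Within the brain-labelled library, the order by RPKM was Sct, Vip, Nts, Gip, Gcg, Cck, Ghrl, Tac1, Pyy and Sst. Neighbours that did not differ beyond counting error were Vip and Nts (ratio 1.04, 0.931 to 1.17), Gcg and Cck (1.02, 0.858 to 1.21), Cck and Ghrl (1.20, 0.978 to 1.47), and Tac1 and Pyy (1.03, 0.799 to 1.34). Within the kidney-labelled library, the order was Vip, Gcg, Sct, Pyy, Tac1, Sst, Nts, Cck and Ghrl, and the neighbours Pyy and Tac1 (1.11, 0.856 to 1.44), Nts and Cck (1.08, 0.675 to 1.75) and Cck and Ghrl (1.37, 0.771 to 2.50) did not differ beyond counting error. In the small intestine-labelled library, Cck exceeded Tac1 3.53-fold (3.30 to 3.78), Tac1 exceeded Vip 1.88-fold (1.71 to 2.06) and Vip exceeded Sst 1.74-fold (1.52 to 1.99). The next member there, Nts, was 22.6-fold (14.2 to 38.1) below Sst. The signal in that library thus came from 4 members, with the other 6 at 4.90 RPKM or less.

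The brain-labelled library was compared with the small intestine-labelled one first. An mRNA was counted as higher or lower where its RPKM differed at least 4-fold, with mRNAs under 3 reads set to 3 reads, among those with at least 10 reads over both libraries. Of the 10 members, all of them tested, 6 were higher (Gcg, Gip, Pyy, Nts, Sct, Ghrl) and 3 were lower (Cck, Sst, Tac1), against 20.7% higher and 35.8% lower among all 13565 mRNAs tested. The median log2 fold of the members was 4.60, beside −0.38 for all mRNAs tested. Pyy and Ghrl had no read in the small intestine-labelled library, and Gip, Sct and Gcg had 3, 3 and 6. These members passed the minimum of 10 reads through the brain-labelled library alone, which fixed their direction. The counts and the median rest partly on them. Sct was 221-fold (75.4 to 1073) and Gip 86.5-fold (29.4 to 421) higher, each against 3 reads. Ghrl was at least 40.7-fold and Pyy at least 25.9-fold higher, each against none. Gcg differed 38.2-fold (17.4 to 105) and Nts 22.9-fold (14.5 to 38.2). In the other direction, Cck was 23.4-fold, Tac1 10.3-fold and Sst 6.31-fold higher in the small intestine-labelled library. Vip alone was on neither side, at 1.65-fold in favour of the small intestine-labelled library.

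The kidney-labelled library was then set against the same small intestine-labelled one. Among the 9 members tested, 4 were higher (Gcg, Pyy, Sct, Ghrl) and 3 were lower (Cck, Sst, Tac1), against 17.5% and 23.4% of all 14166 mRNAs tested. The median log2 fold was 1.26, beside −0.29 for all mRNAs tested. In the small intestine-labelled library Pyy and Ghrl had no read, Sct had 3 reads and Gcg had 6. These members passed the minimum of reads through the kidney-labelled library alone, which fixed their direction. The count of higher members rests on them, and the median rests partly on them. Sct was 83.0-fold (28.1 to 405) and Gcg 66.9-fold (30.5 to 183) higher, Pyy at least 37.6-fold and Ghrl at least 7.06-fold. Cck was 118-fold lower. Nts (2.39-fold higher, 1.37 to 4.32) and Vip (1.32-fold lower) did not reach 4-fold, and Gip had 3 reads in all and was not tested. Both comparisons use the same small intestine-labelled library and are not independent.

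Between the brain- and kidney-labelled libraries, 4 members differed in 1 direction and none in the other. Gip (at least 85.8-fold), Nts (9.57-fold), Ghrl (5.77-fold, 3.66 to 9.57) and Cck (5.03-fold, 3.49 to 7.49) were higher in the brain-labelled library, against 11.6% of all 12548 mRNAs tested, and 0 members were lower, against 25.5%. The median log2 fold of the 10 members was 0.54, beside 0.02 for all mRNAs tested. Gip had no read in the kidney-labelled library and passed the minimum of 10 reads through the brain-labelled one alone, which fixed its direction. Sct was 2.66-fold higher. Sst, Vip, Tac1, Pyy and Gcg all lay between 1.25-fold and 1.75-fold higher in the kidney-labelled library, and of these Sst and Tac1 had intervals that included no difference. In the kidney-labelled library a single mRNA, Kri1, took 22.1% of the reads, which lowers every other RPKM there. Its share was 14.1% in the small intestine-labelled library and 2.01% in the brain-labelled one. With Kri1 left out of the totals, Vip was 0.636, Tac1 0.627, Sst 0.567, Pyy 0.547 and Gcg 0.454 of the level in the kidney-labelled library. Whether Sst and Tac1 differed beyond counting error thus depended on the scaling. The same 4 members were called. With mitochondrially encoded mRNAs left out as well, Cck was no longer among them.

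**Figure D3:**
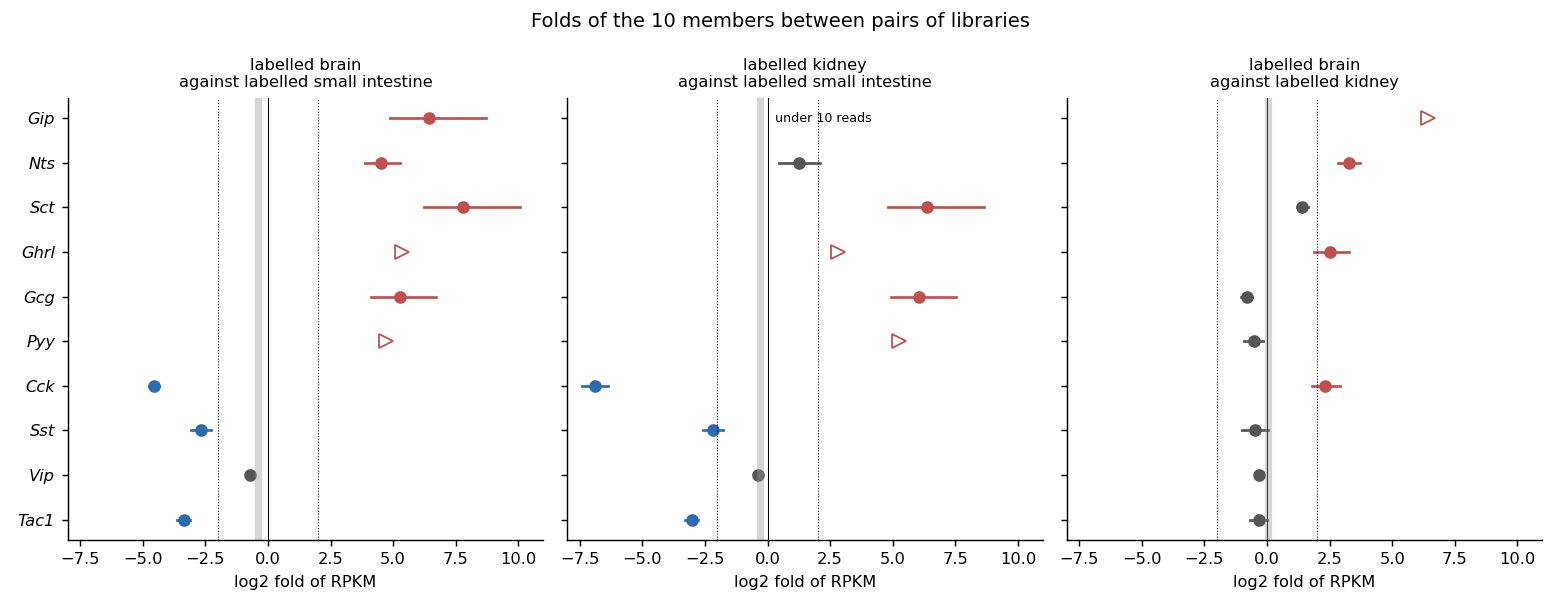
Log2 fold of RPKM of each member in 3 pairs of libraries, positive where the first-named library is higher. Points carry exact 95% intervals where both libraries had reads, and open triangles are folds computed against 3 reads where the other had none. Dotted lines mark 4-fold, and the grey band marks the median of all mRNAs tested. In the left panel 6 members lie beyond 4-fold to the right and 3 to the left, with Vip between the dotted lines.

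Neuronal use of Cck, Sst, Vip and Tac1 was set beside 10 mRNAs known from neurons (Snap25, Syt1, Stmn2, Elavl4, Tubb3, Rbfox3, Gad1, Gad2, Slc32a1, Slc17a7). All 10 were highest in the small intestine-labelled library, as were 23.5% of all mRNAs with at least 10 reads over the 6 libraries. Their summed level there was 5128 RPKM, against 30.4 RPKM in the brain-labelled library and 56.4 RPKM in the kidney-labelled one. The synaptic calcium sensor Syt1 led with 2332 RPKM, followed by the glutamate transporter Slc17a7 with 770 RPKM, Snap25, tubulin Tubb3 with 475 RPKM and the GABA-synthesising enzyme Gad1 with 380 RPKM. The 9 markers with at least 100 reads had between 0% and 3.09% of their highest level in the brain-labelled library, with Rbfox3, Gad1 and Gad2 at 0 reads. In the kidney-labelled library they had between 0.0195% and 3.05%. Elavl4, with fewer reads, had 60 in the small intestine-labelled library (6.80 RPKM), 6 in the kidney-labelled one (0.685 RPKM) and none in the brain-labelled one. Its share in the kidney-labelled library was thus above the range of the 9 markers. Members mostly kept more than the 9 markers. In the brain-labelled library Vip had 60.6%, Sst 15.8%, Tac1 9.67% and Cck 4.27% of its level in the small intestine-labelled library, all above the 9 markers. In the kidney-labelled library Vip had 75.8%, Sst 22.2% and Tac1 12.3%, again above the 9 markers, whereas Cck with 0.848% lay within their range.

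**Figure D4:**
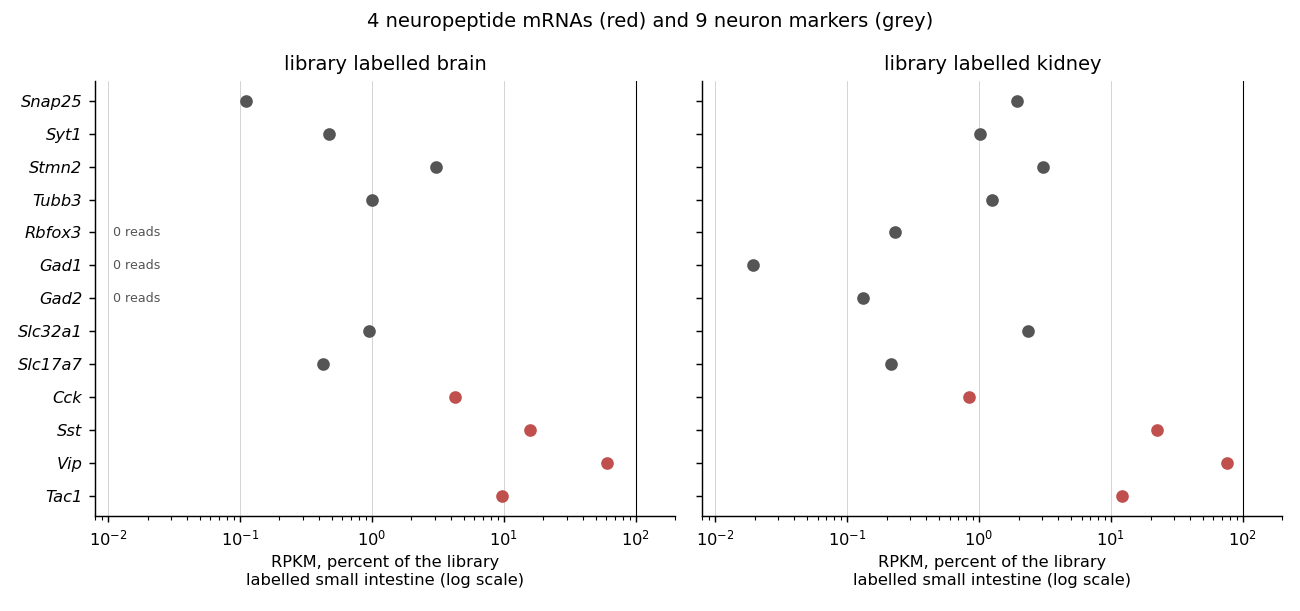
RPKM as percent of the small intestine-labelled library (log axis) for 4 members (red) and the 9 neuron markers with at least 100 reads (grey), in the brain- and kidney-labelled libraries. Each point is 1 library. The 4 members lie at 4.27% or more in the brain-labelled library, to the right of every neuron marker shown. Of the members, Cck alone lies among the markers in the kidney-labelled library, at 0.848%. Elavl4, with fewer than 100 reads, is not shown.

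Per unit of Syt1, the members differed in the same way, in ratios that were chosen after the values were seen. The RPKM of Vip was 0.0825 (0.0767 to 0.0888) of that of Syt1 in the small intestine-labelled library, 6.19 (5.29 to 7.25) in the kidney-labelled one and 10.5 (8.79 to 12.7) in the brain-labelled one. For Tac1 these ratios were 0.155, 1.88 and 3.15. For Sst they were 0.0475, 1.04 and 1.58. Cck differed from them, with 0.547 (0.529 to 0.566) in the small intestine-labelled library, 0.459 (0.308 to 0.663) in the kidney-labelled one and 4.91 (3.98 to 6.08) in the brain-labelled one. The first 2 of these ratios had overlapping intervals. Per unit of Snap25 they did not overlap, with 1.87 (1.78 to 1.96) for Cck in the small intestine-labelled library and 0.818 (0.519 to 1.27) in the kidney-labelled one.

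Markers of peripheral neurons were also read in the brain- and kidney-labelled libraries. The receptor Ret, needed by enteric neurons, had 6.35 RPKM in the brain-labelled library, 8.79 RPKM in the kidney-labelled one and 16.3 RPKM in the small intestine-labelled one. The intermediate filament Prph was highest in the brain-labelled library at 6.06 RPKM, and the acetylcholine-synthesising enzyme Chat, at 67 reads in the small intestine-labelled library, had none in either. Over the 8 markers of this list, 5 had reads in the brain-labelled library and 7 in the kidney-labelled one, with summed levels of 58.8 and 58.6 RPKM. The sum was 912 RPKM in the small intestine-labelled library, of which Uchl1 gave 858 RPKM, and 53.7 RPKM in the lung-labelled one. Tbx3, highest in the lung-labelled library at 34.5 RPKM, gave 26.7 RPKM of the sum in the brain-labelled one. Their part in the levels of Vip, Tac1 and Sst was not tested. All 5 smooth muscle mRNAs of the gut wall were at least 4-fold higher in both libraries than in the small intestine-labelled one. Of all mRNAs tested, 20.7% were so in the brain-labelled library and 17.5% in the kidney-labelled one. Myh11 had 880 RPKM in the brain-labelled library, 1095 RPKM in the kidney-labelled one and 7.40 RPKM in the small intestine-labelled one.

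Markers of enteroendocrine cells were read in all 3 libraries with high members. Chromogranin A and B (Chga, Chgb), which pack hormones into granules of endocrine cells and neurons alike, had 426 and 664 RPKM in the brain-labelled library, 523 and 1224 RPKM in the kidney-labelled one, and 1268 and 4567 RPKM in the small intestine-labelled one. They had at most 8.84 RPKM in the other 3. Of the 14 mRNAs of the list, 7 had reads in the brain-labelled library, 9 in the kidney-labelled one and 11 in the small intestine-labelled one. The serotonin-synthesising enzyme Tph1 of enterochromaffin cells had 9.96 RPKM in the brain-labelled library, 3.34 RPKM in the kidney-labelled one and 1 read in the small intestine-labelled one. Fev, a transcription factor of serotonin cells in gut and brain, had 10.8, 4.08 and 8.65 RPKM in the same order. The endocrine progenitor factor Neurog3 had no read in any library, and Insm1 had 1 read in each of 2. Neurod1 had 5.53 RPKM in the brain-labelled library, 1 read in the kidney-labelled one and 16.7 RPKM in the small intestine-labelled one.

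Ratios to Chga were also chosen after the values were seen. Per unit of Chga, Vip was alike in the brain- and kidney-labelled libraries, with ratios of 0.274 (0.252 to 0.298) and 0.279 (0.255 to 0.304). Tac1 (0.0821 and 0.0846) and Sst (0.0413 and 0.0471) had overlapping intervals as well, as did Pyy (0.0795 and 0.0941). Gcg was higher per Chga in the kidney-labelled library (0.186 against 0.130). Sct (0.488 against 0.149), Nts (0.263 against 0.0224), Ghrl (0.107 against 0.0151) and Cck (0.128 against 0.0207) were higher in the brain-labelled one.

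Genes whose use depends on the position along the gut also separated the brain- and kidney-labelled libraries. The ileal bile acid transporter Slc10a2 had 137 RPKM and Fabp6 26087 RPKM in the former, against 16.4 and 149 RPKM in the latter. The colonic carbonic anhydrase Car1 had 434 RPKM in the kidney-labelled library and 1.92 RPKM in the brain-labelled one. The hindgut factors Hoxb13 and Hoxd13 had 88 and 23 reads in the kidney-labelled library and none in the brain-labelled one. Pdx1 and Onecut2, factors of the duodenum, had no read in any library, and Gata4 had 98 reads in the brain-labelled library and 2 in the kidney-labelled one.

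Outside these 3 libraries, no member but Cck had more than 21 reads. In the heart-labelled library 8 members had between 1 and 21 reads, which was 0.173% to 6.88% of their highest level. In that library Muc2 had 1.54% (4307 reads) and Snap25 0.289% of their highest levels, while Fabp6 had 0.0134%. The 6 members at low levels in the small intestine-labelled library had between 0 and 19 reads, and the 4 of them with reads stood at 0.453% to 4.38% of their highest level. There Apoa4 had 1.71%, Fabp6 0.878% and Muc2 0.330% of theirs. In the lung-labelled library the 3 reads of Cck were the only ones of any member. Whether reads of other tissues contributed to these values was not tested.

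The colon-labelled library held no read of 9 members and 143 reads of Cck. Its depth, 4504853 reads, was the lowest of the 6, and 3 reads would give between 1.23 and 2.22 RPKM for the other members. Cck had 6.19% of its highest level there. Neuron markers were at 0% to 0.658% of their highest level in the same library, Chga had 4 reads and Apoa4 had 1.57% of its highest level. The CCK receptor Cckar had 94 reads (16.0 RPKM) in that library and none in the brain- and small intestine-labelled ones. It was highest in the lung-labelled library (185 reads, 18.3 RPKM), where Cck had 3 reads, and had 57 reads in the kidney-labelled one.

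Receptors of the members were spread over the libraries. Of 26 receptor genes, 15 were highest in the small intestine-labelled library, 3 in the kidney-labelled one and 2 in the lung-labelled one. The other 3 libraries had 1 each. Of all 15432 mRNAs with at least 10 reads, 23.5%, 9.1% and 24.5% were highest in the small intestine-, kidney- and lung-labelled libraries. The receptor count set no minimum of reads and includes genes with few, such as Ntsr1 with 2. The sorting receptor Sort1, which binds neurotensin, was the most abundant at 408 RPKM in the small intestine-labelled library, followed by the PACAP receptor Adcyap1r1, which also binds VIP, at 192 RPKM in the same library. The GLP-1 receptor Glp1r reached 52.2 RPKM (561 reads) in the lung-labelled library and at most 1.98 RPKM in any other, and no read of Gcg was found there. Vipr2, a VIP receptor, had 29.0 RPKM (288 reads) in the kidney-labelled library, 8.18 RPKM in the small intestine-labelled one and no read in the brain-labelled one. Vipr1, another VIP receptor, had 5.46 RPKM (80 reads) in the brain-labelled library and 5.84 RPKM (61 reads) in the kidney-labelled one. In the small intestine-labelled library it had 1.23 RPKM (13 reads). The peptide YY receptor Npy2r had 23.7 RPKM in the small intestine-labelled library and 5.42 RPKM in the kidney-labelled one.

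Some receptors were not seen at all. The secretin receptor Sctr and the ghrelin receptor Ghsr had no read in any library, and Tacr2 was not listed. The GLP-2 receptor Glp2r had 6.92 RPKM in the brain-labelled library and 6.10 RPKM in the kidney-labelled one, the libraries with the highest Gcg. The GIP receptor Gipr had 3 reads in all. Among the 16 receptors tested between the brain- and small intestine-labelled libraries, 1 was higher and 14 were lower, against 20.7% and 35.8% of all mRNAs tested. Between the kidney- and small intestine-labelled libraries, 3 of 18 were higher and 7 lower, against 17.5% and 23.4%. Between the brain- and kidney-labelled libraries, 0 of 11 were higher and 7 lower, against 11.6% and 25.5%. Receptors without reads in 1 library of a pair passed the minimum of 10 reads through the other library alone, which fixed their direction.

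The 2 prohormone convertases had unlike levels in the 3 libraries with high members. Pcsk1, which gives GLP-1 from proglucagon, had 57.4 RPKM (1380 reads) in the brain-labelled library, 68.9 RPKM (1181 reads) in the kidney-labelled one and 156 RPKM (2690 reads) in the small intestine-labelled one. Pcsk2, which gives glucagon in the pancreas, had 1010 RPKM (14761 reads) in the small intestine-labelled library, 7.94 RPKM (115 reads) in the kidney-labelled one and no read in the brain-labelled one. The libraries with high Gcg thus held Pcsk1 well above Pcsk2. The convertase inhibitor Pcsk1n followed Pcsk2, with 223, 9.71 and 0 RPKM in the same 3 libraries.

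Carboxypeptidase E (Cpe), which trims the basic residues left by the convertases, had 11081 RPKM in the small intestine-labelled library, 660 RPKM in the kidney-labelled one, 291 RPKM in the brain-labelled one and 920 RPKM in the heart-labelled one. The amidating enzyme Pam was highest in the heart-labelled library at 483 RPKM, where no member passed 6.08 RPKM, and lowest in the brain-labelled one at 19.9 RPKM, where Sct was highest. Dpp4, which inactivates GLP-1 and GIP, was highest in the brain-labelled library at 362 RPKM, the library with the highest Gip. Of 10 enzymes tested, 3 were higher and 4 lower between the brain- and small intestine-labelled libraries, against 20.7% and 35.8% of all mRNAs tested. Between the kidney- and small intestine-labelled ones 1 was higher and 3 lower, against 17.5% and 23.4%, and these shares lie near those of all mRNAs. Between the brain- and kidney-labelled libraries 3 were higher and 3 lower, against 11.6% and 25.5%.

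**Figure D5:**
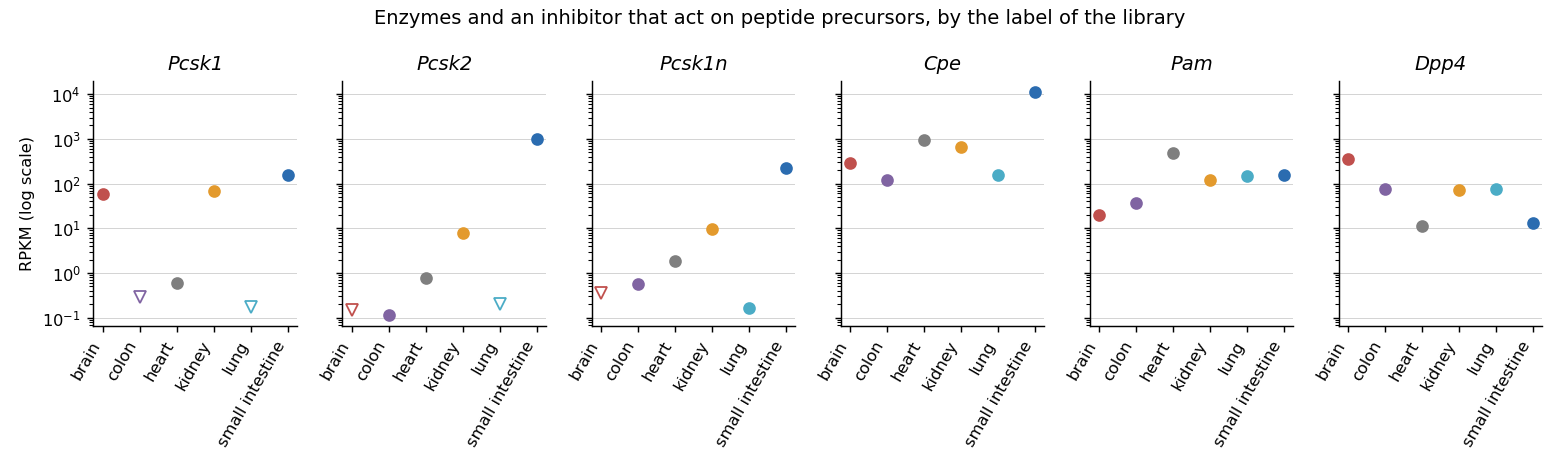
RPKM (log axis) of the convertases Pcsk1 and Pcsk2, the convertase inhibitor Pcsk1n, and the enzymes Cpe, Pam and Dpp4 in the 6 libraries, named by their labels. Each point is 1 library, and open triangles mark the RPKM that 3 reads would give where no read was found. Pcsk1 stands at 57.4 to 156 RPKM in 3 libraries, whereas Pcsk2 reaches 1010 RPKM in the small intestine-labelled one and has no read in the brain-labelled one.

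Among 27 other peptide hormones and neuropeptides, 16 were highest in the small intestine-labelled library, 6 in the kidney-labelled one and 1 in the colon-labelled one. Another 4 had no read. Of all mRNAs with at least 10 reads over the 6 libraries, 23.5%, 9.1% and 15.2% were highest in these libraries. The count for the list set no minimum of reads. The opioid precursor Penk led with 419 RPKM in the small intestine-labelled library, followed by Cartpt with 107 RPKM, Adcyap1 with 91.7 RPKM, Pdyn with 88.3 RPKM and Trh with 59.3 RPKM. In the kidney-labelled library, Ppy had 56.3 RPKM (128 reads) and Insl5, a hormone of colonic L cells, had 50.3 RPKM (166 reads), levels near those of Pyy there. Nmu (89 reads), Gal (60 reads) and Iapp (19 reads) were also highest in that library. Of these 5, only Ppy had a read in the brain-labelled library, and it had 1. In the brain-labelled library 4 genes of this list had reads, led by Penk with 93 reads (10.9 RPKM), and the other 3 had 1 or 2 reads. Most genes of the list therefore passed the minimum of 10 reads through the other library alone, which fixed their direction, and no count is read from the comparisons with the brain-labelled library. Between the kidney- and small intestine-labelled libraries 5 of 18 were higher and 10 lower, against 17.5% and 23.4% of all mRNAs tested, and some of these too had no read in 1 of the pair.

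The mRNAs most like each member were named by the overlap of their shares of summed RPKM over the 6 libraries, on a scale to 100, among 12558 mRNAs with at least 100 reads. Those of Gip were Ms4a10, Gm11437 and AY761185, at 99.7 to 100.0, all read almost only in the brain-labelled library. Those of Gcg were Cyp2c65, Mgat4c and Nkx2-3, at 98.1 to 98.8. Those of Pyy were Gpr20, Sdcbp2 and the goblet cell peptide Tff3, at 98.2 to 99.1. Naip5, Mis12 and Il22ra1 were closest to Sct (98.3 to 99.0), Ano7, H2bc9 and Mapk1ip1l to Nts (96.4 to 98.0), and Zfp36, Oasl1 and Mapk1ip1l to Ghrl (96.7 to 98.0).

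For the members highest in the small intestine-labelled library the likeness was slightly lower. Chromogranin B (Chgb) was the mRNA closest to Sst, at 97.0, followed by Dmp1 and the synaptic adhesion protein Nlgn2 at 94.4 and 93.5. Wasf1, Map7d2 and Ak5 were closest to Cck (96.2 to 97.4), Lrp8, Vat1l and Neto2 to Tac1 (94.8 to 98.0), and Map3k13, Adra2a and Smpd3 to Vip (93.7 to 96.1). Over 6 points with 3 to 4 of them near 0, many mRNAs score alike. The naming depended on the measure, as 3 of the 30 remained with Pearson r of log2 RPKM.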

How the data were processed

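According to the study's methods, the authors removed adapters (Cutadapt), dropped reads under 15 nt and aligned the rest with STAR to 1 Ensembl GRCm39 transcript per gene, chosen for its longest CDS. Only uniquely placed reads with up to 2 mismatches were kept. The methods describe this for macrophages, and the same was assumed for tissues. The authors deposited 1 RPKM value per mRNA and library. RPKM times CDS length was divided by the smallest step of the library, which gave whole reads (within 0.01) for 100% of the values, and the reads summed to the total that the step implies. An unlisted mRNA therefore had 0 reads. Strand of counting and positions of reads were not used here. Symbols came from GENCODE M39 for 18424 of 18437 mRNAs. Samples were grouped by their tissue label.

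The members and lists were chosen with earlier results of these data known. Named genes were the 10 members, the leading genes of each list with defining markers, and the 3 mRNAs most like each member. Other genes of the lists were named after their values were seen. Some genes of the lists are not reported here. Alternatives covered the scaling, the fold, the least reads and the floor. Recovery and calls were tested on simulated data. The software was Python 3.11.15 (pandas 2.3.3, scipy 1.17.1, numpy 2.4.6; figures by matplotlib 3.10.9).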

Additional observations from a re-analysis of the deposited data

How the results depend on the processing

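Of 48 recomputed counts of members called, 47 stayed within 1.5 times the value given. The exception was the comparison of the brain- and kidney-labelled libraries, where a fold of at least 8 left 2 members higher, Gip and Nts. All 10 members kept the library of their highest RPKM under the 3 other scalings, and no fold of a member changed direction. Of 72 recomputed folds of single members, 56 stayed within the interval of the main fold and 16 moved outside it. Between the brain- and kidney-labelled libraries these included Sct, at 2.06- to 2.22-fold, and Gcg, at 0.442 to 0.478. By reads instead of RPKM the share of the leading member was 25.9% for Sct in the brain-labelled library and 35.1% for Vip in the kidney-labelled one. Other scalings shifted all log2 folds by up to −0.29 between the brain- and small intestine-labelled libraries, 0.17 between the kidney- and small intestine-labelled ones and −0.37 between the brain- and kidney-labelled ones. Sst was no longer called between the kidney- and small intestine-labelled libraries without Kri1 and mitochondrially encoded mRNAs, nor in either comparison with the latter at 8-fold. Ghrl was not called at 8-fold or with at least 30 reads between the kidney- and small intestine-labelled libraries. No paired analysis was possible because each group has 1 library. The number of reads limits the low values: 3 reads, the floor used for a member without reads, correspond to up to 2.22 RPKM (Pyy in the colon-labelled library).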

Other observations

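Markers of the stomach, an organ with hormone cells of its own, were near 0 in the libraries with high members. Of 8 stomach genes, 1 had reads in the brain-labelled library (2 reads of Atp4a) and 1 in the kidney-labelled one (5 reads of Muc5ac). The lung-labelled library held 138 reads of Tff2, 136 of Pgc and 44 of Atp4b, without any read of Ghrl or Sst. The 10 pancreatic genes had their highest sum, 65.5 RPKM, in the kidney-labelled library, from 128 reads of Ppy, 19 of Iapp and 1 each of Pnlip and Ctrb1, while Ins1 and Ins2 were not listed. Of this list, the exocrine enzymes Pnlip and Ctrb1 had 36 and 30 reads in the heart-labelled library and at most 2 in any other, and that library held 9 reads of Gcg.

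Pulmonary neuroendocrine cells, the hormone cells of the airways, left no read of Calca, Grp or Resp18 in the lung-labelled library. The neuron marker Stmn2 had 464 reads (112 RPKM) in that library, 34.7% of its highest level, while Snap25 had none. No member but Cck, with 3 reads, was read there.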
